A study of Homo sapiens with 6 samples.

Results

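Matrix proteases and their inhibitors were followed in U87MG, an established human glioblastoma cell line, with and without forced expression of LMO2. The members were all genes of the deposited comparison table whose symbol is MMP, ADAM, ADAMTS or TIMP followed by a number, 55 of 27259 genes. They comprised 13 MMPs treated here as secreted, 6 membrane-type MMPs, 16 ADAMs, 16 ADAMTS proteases and 4 TIMPs. RefSeq lists 14 other genes whose symbols fit this rule. They had no line in the deposited tables and so could not be analysed. Total RNA was sequenced from U87MG cells that had received a control lentivirus (U87MG-control, n = 3 libraries) or an LMO2 lentivirus (U87MG-LMO2, n = 3 libraries), each for 24 h. Virus infection was therefore common to both groups, and no library of uninfected cells was analysed here. The labels do not say whether the libraries of a group came from separate cultures or whether the infected cells were a clone or a pool. The p-values below measure the spread between these libraries, which may be technical. Since whole cultures were sequenced, fewer cells that express a gene and less RNA per cell cannot be told apart.

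Proteases of the metzincin clan cut proteins outside the cell with a zinc ion held in their active site. MMPs are made as inactive precursors and cut collagens, laminins and other matrix proteins once the propeptide is removed. Most are secreted, whereas the membrane-type MMPs act at the cell surface. ADAMs are membrane-bound and release the outer parts of other membrane proteins, and ADAMTS enzymes are secreted and cut proteoglycans, procollagens and other matrix components. TIMPs bind the active site of MMPs and, to differing degrees, of ADAMs and ADAMTS enzymes. In glioblastoma these enzymes are known chiefly for their part in the invasion of brain tissue.

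The LMO2 gene (Entrez ID 4005), whose overexpression defines the groups, was read before the members, with 7, 11 and 5 counts in U87MG-control and 5459, 4503 and 14570 in U87MG-LMO2. Every U87MG-LMO2 library was deeper (14630627 to 17892955 expected counts) than every control (11428432 to 13537284). U87MG-LMO2 replicate 3 stood apart from the other libraries of its group. Its counts differed from theirs with a chi-square per degree of freedom of 40.3 and 54.4, against 7.57 between replicates 1 and 2 and 2.27 to 10.8 among the controls. Its file was damaged for 134 genes, none of them a member. Of 6 markers of glial and neural stem cells, vimentin (VIM) at 5166 ± 44.4 FPKM (SD, n = 3) and nestin (NES) at 7.93 ± 0.684 FPKM were expressed in control, while OLIG2, SOX2 and S100B were below 1 FPKM in all 6 libraries and GFAP in the 3 controls. The mesenchymal markers CD44, COL1A1 and FN1 were abundant. Of 4 endothelial markers, CDH5 and VWF were at or under 0.2 FPKM in every library, PECAM1 ran from 0.72 to 1.08 FPKM over the 6 libraries and KDR from 0.56 to 1.01 FPKM. The neuronal markers RBFOX3 and SYT1 were below 1 FPKM in every library, whereas SNAP25 was at 14.01 ± 1.78 FPKM (SD, n = 3) in control. PTPRC, CD14, ITGAM, EPCAM and CDH1, which mark leukocytes and epithelium, were below 1 FPKM in every library, although the lysosomal protein CD68 was at 236 ± 40.9 FPKM (SD, n = 3) in control.

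The protease transcripts of U87MG-control were dominated by a few genes. Levels were compared between genes as FPKM, which is scaled to gene length and sequencing depth. Of the 55 members, 29 had a mean over 1 FPKM in U87MG-control, 13 were over 10 FPKM and 3 were over 100 FPKM. These 3 were MMP2, a gelatinase that cuts basement membrane collagen, at 532 ± 9.01 FPKM (SD, n = 3), the inhibitor TIMP1 at 172 ± 15.4 FPKM, and MMP14, the membrane protease that activates proMMP2, at 142 ± 12.1 FPKM. MMP2 alone made up 50.5% ± 1.51 (SD, n = 3) of the FPKM summed over the 51 members other than TIMPs in control and 52.9% ± 2.87 (SD, n = 3) in U87MG-LMO2. These 51 are counted as proteases in all sums here. They include ADAMs that lack a catalytic site and MMP23A, which GENCODE v29 labels an unprocessed pseudogene.

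**Figure D1:**
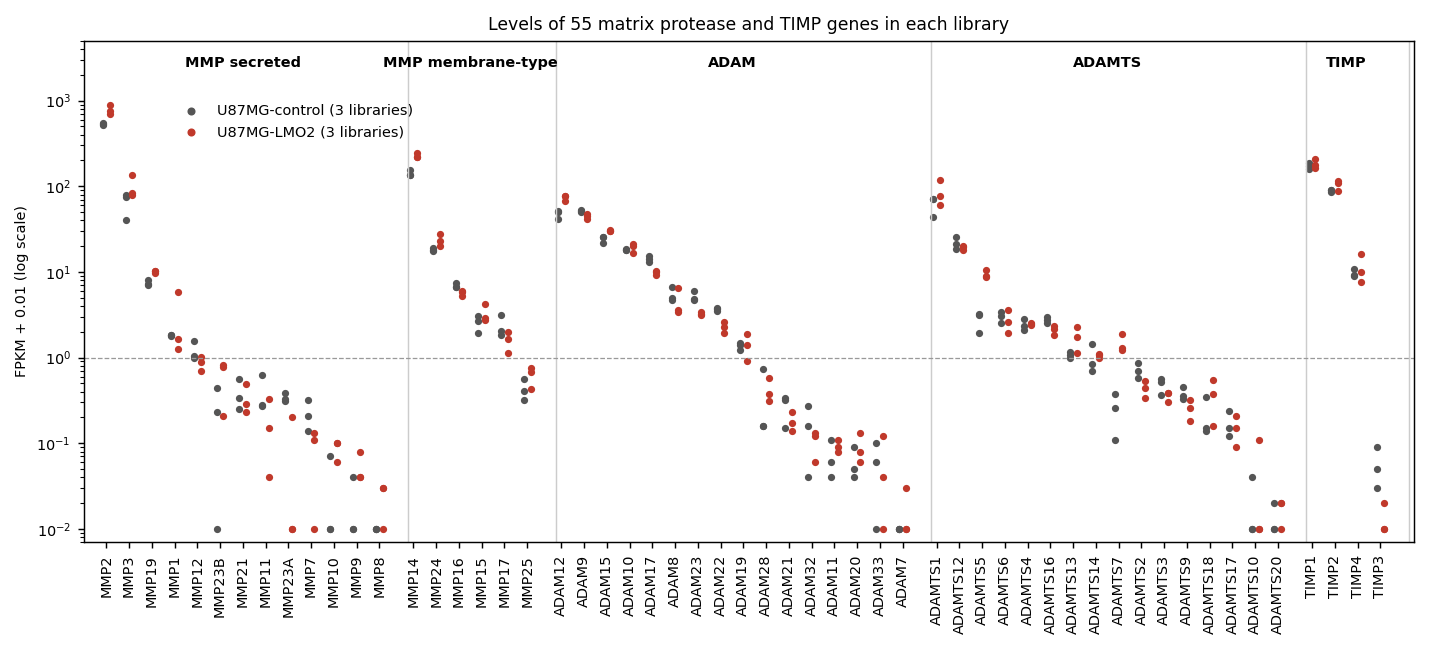
Level of each of the 55 members, as FPKM + 0.01 on a log axis, with a point for each of the 6 libraries (U87MG-control grey, U87MG-LMO2 red) and members ordered by mean level within their class. The dashed line marks 1 FPKM. MMP2 lies above every other member in all 6 libraries, and MMP9, MMP8, ADAM7 and TIMP3 lie near the bottom of the axis.

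After MMP2, the secreted MMPs of highest level were MMP3 (stromelysin 1), at 64.6 ± 21.3 FPKM (SD, n = 3) in control, and MMP19 at 7.42 ± 0.569 FPKM. The collagenase MMP1 stood at 1.80 ± 0.0404 FPKM and the elastase MMP12 at 1.19 ± 0.330 FPKM. MMP9, the other gelatinase, had 0, 0 and 1 counts in control and 1, 1 and 3 counts in U87MG-LMO2, which is at or under 3 counts, the limit that a count of 0 allows, in every library. The 3 control values of MMP3, which ran from 40.1 to 79.2 FPKM, did not overlap with those of MMP2 or MMP19, so the order of these 3 levels exceeded their spread.

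Among membrane-type MMPs, MMP24 followed MMP14 at 18.1 ± 0.745 FPKM (SD, n = 3) in control, and MMP16 stood at 6.90 ± 0.437 FPKM. MMP15 (2.55 ± 0.563 FPKM) and MMP17 (2.32 ± 0.703 FPKM) had overlapping control values and could not be ordered. Neutrophil-associated MMP25 was at 0.420 ± 0.121 FPKM.

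ADAM levels were spread more evenly over several genes than those of the MMPs. ADAM9 (51.3 ± 1.93 FPKM, SD, n = 3) and ADAM12 (48.1 ± 5.33 FPKM), a disintegrin protease of mesenchymal cells, overlapped in control, and ADAM15 was at 24.3 ± 2.20 FPKM. The chief sheddases were lower, with ADAM10 at 18.3 ± 0.194 FPKM and ADAM17, the TNF-releasing enzyme, at 14.3 ± 1.16 FPKM.

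In the ADAMTS class, ADAMTS1, a proteoglycan-cutting enzyme, was highest at 62.04 ± 15.6 FPKM (SD, n = 3) and ADAMTS12 was next at 21.9 ± 3.63 FPKM. All other ADAMTS genes were below 4 FPKM in every control library. Of the inhibitors, TIMP2 stood at 88.6 ± 3.19 FPKM and TIMP4 at 9.57 ± 0.975 FPKM, and the 3 control values of TIMP1, TIMP2 and TIMP4 formed separate ranges. TIMP3, the matrix-bound inhibitor with the widest activity on ADAMs, had 1, 3 and 6 counts in control and 0, 0 and 1 counts in U87MG-LMO2.

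U87MG-LMO2 was then compared with U87MG-control to ask which members change when LMO2 is overexpressed. Of the 55 members, 39 passed the filter on low counts and were tested with edgeR, and 16 did not, none of which exceeded 17 counts or 0.8 FPKM in any library. Adjusted p-values were computed over all 16092 tested genes, and a member was called when its adjusted p was under 0.05. ADAMTS7, ADAMTS5, MMP14, ADAM12, MMP2 and MMP19 rose, which is 6 of 39 (15.4%), against 4.72% of all tested genes called higher. ADAM23, ADAM22, ADAM17 and MMP16 fell, which is 4 of 39 (10.3%), against 2.75% of all tested genes called lower. In either direction 10 of 39 (25.6%) were called, against 7.48% of all tested genes. The median log2 fold change was 0.12 over the 39 members and -0.01 over all tested genes. The members were chosen with earlier results of these data known, so these shares describe them and do not test for enrichment.

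Only ADAMTS5 and ADAMTS7 changed by more than 2-fold among the 10 called members. All 10 had normalised read counts (CPM) that did not overlap between the groups, which the threshold itself favours and which is no separate support. Over all 39 tested members the U87MG-LMO2 libraries lay entirely above the controls for 9 (23.1%) and entirely below for 5 (12.8%). The shares over all tested genes were 17.5% and 16.6%. When U87MG-LMO2 replicate 3 was left out, 7 members were called higher and 5 lower, and all 10 calls held. Over all genes that fit called 1307 higher and 1102 lower, against 760 and 443 with all libraries. When a control library was left out, 1 to 3 members were called higher and 0 lower. Over all genes the number called higher then went from 760 to between 102 and 123, and the number called lower from 443 to between 42 and 56. Without U87MG-LMO2 replicate 1, 3 members were called higher and 0 lower, and without replicate 2 the counts were 6 and 1. Over all genes the fit without replicate 1 called 177 higher and 48 lower, and that without replicate 2 called 579 and 304.

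**Figure D2:**
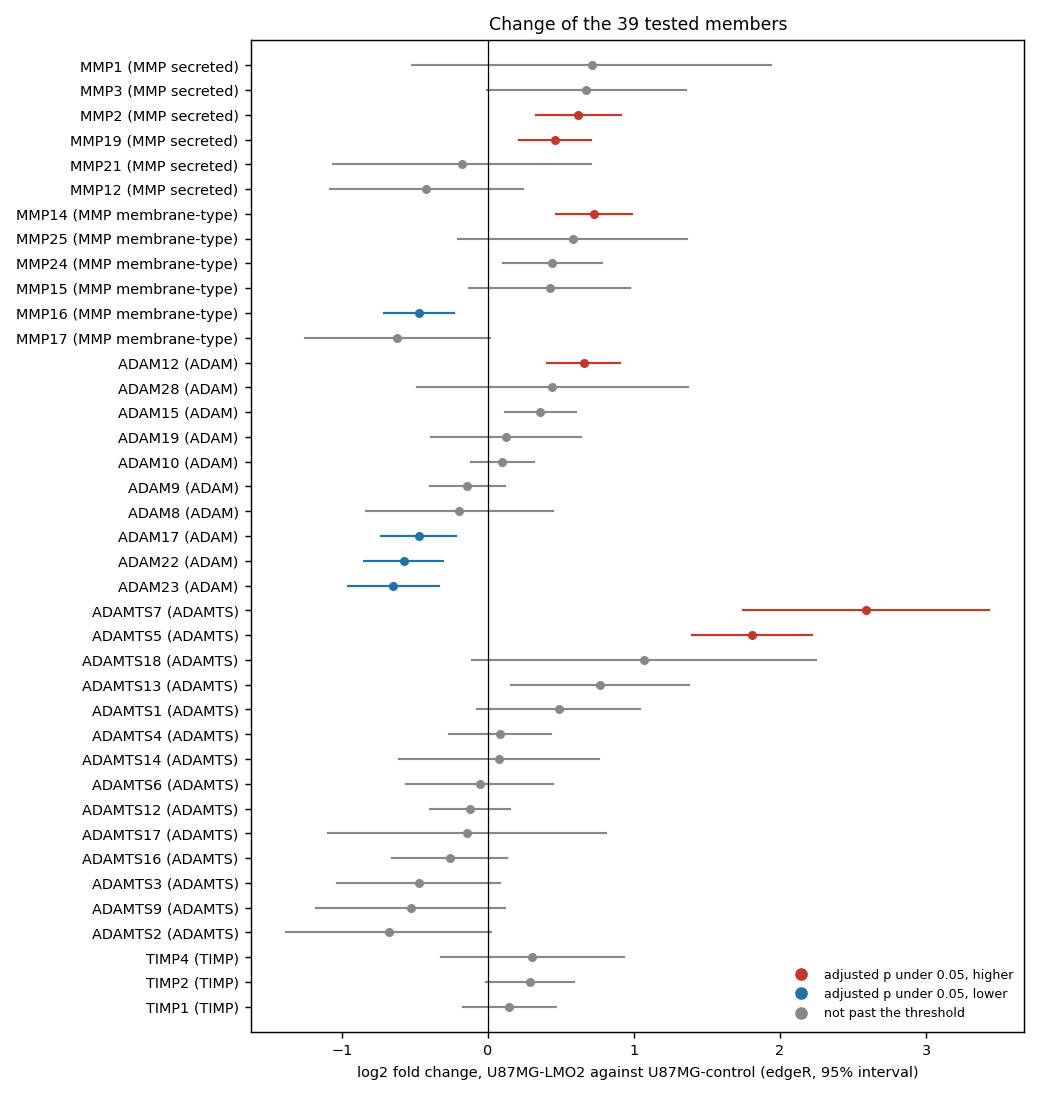
Change of the 39 tested members, by class, as the log2 fold change of U87MG-LMO2 against U87MG-control from edgeR (n = 3 libraries a group). Points are estimates, lines are 95% intervals, red marks the 6 genes called higher and blue the 4 called lower. ADAMTS7 and ADAMTS5 lie farthest to the right, and the 3 tested TIMPs all have intervals that include 0.

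Of the secreted MMPs, 2 of the 6 tested rose and none fell, against 4.72% and 2.75% of all tested genes. Counts by class, here and below, rest on few genes and were not tested. Gene positions here and below are those of GENCODE v29 on GRCh38, and all called members are protein-coding genes. MMP2 (Entrez ID 4313, chr16:55389700-55506691) had 1876, 1817 and 1827 CPM in U87MG-control replicates 1 to 3 and 2643, 2449 and 3382 CPM in U87MG-LMO2 replicates 1 to 3. The control libraries lay within a narrow range, and all U87MG-LMO2 libraries were above it, with replicate 3 highest. The increase was 1.53-fold (log2 fold change 0.62, SE 0.13, adjusted p = 0.0285). It was 0.47 on the log2 scale without U87MG-LMO2 replicate 3 (adjusted p = 0.00253). The call was lost when any control library or U87MG-LMO2 replicate 1 was left out (log2 fold changes 0.61 to 0.67, adjusted p 0.0770 to 0.122). Exons of MMP2 overlap those of AC007336.3 on the same strand, so strand alone cannot separate reads from the shared part. That gene was not analysed here.

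MMP19 (Entrez ID 4327, chr12:55835433-55842966), which cuts basement membrane proteins, had 24.99, 22.2 and 22.1 CPM in control and 31.9, 32.3 and 30.97 CPM in U87MG-LMO2. Both groups were tight and did not overlap (log2 fold change 0.46, SE 0.11, adjusted p = 0.0407). The call did not hold in 10 of 14 alternatives, among them 5 of the 6 fits without a library (log2 fold changes 0.43 to 0.52, adjusted p 0.0736 to 0.173), all except that without U87MG-LMO2 replicate 3. Exons of MMP19 overlap those of TMEM198B on the opposite strand, and the strand used in counting is not given in the sources used here. TMEM198B had a log2 fold change of 0.36 with an edgeR adjusted p of 0.139.

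MMP3 did not pass the threshold, with 72.7, 143 and 135 CPM in control and 141, 150.3 and 268 CPM in U87MG-LMO2 (log2 fold change 0.67, SE 0.30, adjusted p = 0.200). Control replicate 1 was low and U87MG-LMO2 replicate 3 high, and the remaining 4 libraries overlapped. MMP1 showed 3.73, 3.80 and 3.63 CPM in control and 3.17, 2.59 and 12.4 CPM in U87MG-LMO2, so its estimate of 0.71 on the log2 scale (adjusted p = 0.443) rested on replicate 3 alone. Without that library the estimate was -0.36. MMP12 and MMP21 had intervals of -1.09 to 0.24 and -1.06 to 0.70 on the log2 scale.

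Membrane-type MMPs moved in both directions. MMP14 (Entrez ID 4323, chr14:22836557-22849027), also called MT1-MMP, was measured at 564, 488 and 487 CPM in the controls and 785, 808 and 952 CPM in U87MG-LMO2. The lowest U87MG-LMO2 library was above the highest control. The rise was 1.66-fold (log2 fold change 0.73, SE 0.11, adjusted p = 0.0116) and held without U87MG-LMO2 replicate 3 (log2 fold change 0.64, adjusted p = 0.00186). It missed the threshold without control replicate 2 or control replicate 3 (log2 fold changes 0.69 to 0.70, adjusted p 0.0697 to 0.0774).

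MMP16 (MT3-MMP, Entrez ID 4325, chr8:88032009-88328025), which like MMP14 can activate proMMP2, went the other way, from 44.2, 43.2 and 44.8 CPM in control to 31.4, 34.4 and 29.4 CPM in U87MG-LMO2. All 3 controls exceeded all 3 U87MG-LMO2 libraries (log2 fold change -0.47, SE 0.10, adjusted p = 0.0340). This call was kept in 6 of 14 alternatives, and it was lost without any control library or without U87MG-LMO2 replicate 1 (log2 fold changes -0.48 to -0.46, adjusted p 0.106 to 0.149). It also missed the threshold with limma on log2(FPKM + 1) (log2 fold change -0.24, adjusted p = 0.242) and on log2(FPKM + 0.1) (log2 fold change -0.27, adjusted p = 0.231), with the replicate block (adjusted p = 0.0868) and with the GC-content correction (log2 fold change -0.35, adjusted p = 0.0513). Exons of MMP16 overlap those of an antisense gene that was not analysed here, and reads of the pair cannot be told apart without strand.

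MMP24 had 89.1, 81.8 and 85.3 CPM in control and 107, 96.3 and 144 CPM in U87MG-LMO2. The groups did not overlap, but the difference did not pass the threshold (log2 fold change 0.44, SE 0.15, adjusted p = 0.109). Its antisense neighbour MMP24-AS1, whose exons overlap, was called higher with a log2 fold change of 0.65 (edgeR adjusted p = 0.0235), and reads of the pair cannot be told apart without strand. MMP15, MMP17 and MMP25 had adjusted p-values of 0.310, 0.201 and 0.328.

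ADAMs with an active protease domain and those without were described apart. Of the 8 tested catalytic ADAMs, 1 rose and 1 fell, against 4.72% and 2.75% of all tested genes. ADAM12 (Entrez ID 8038, chr10:126012381-126388455) had 329.9, 403 and 407 CPM in control and 611, 606 and 577 CPM in U87MG-LMO2. Control replicate 1 was the lowest library, and U87MG-LMO2 values were close together and higher throughout. ADAM12 rose 1.57-fold (log2 fold change 0.65, SE 0.11, adjusted p = 0.0143). It was not called without any control library or without U87MG-LMO2 replicate 1, where the estimate changed little (log2 fold changes 0.56 to 0.71, adjusted p 0.0543 to 0.0690).

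ADAM17 (Entrez ID 6868, chr2:9488486-9556732) fell, from 42.6, 34.98 and 38.7 CPM in control to 27.4, 27.1 and 29.1 CPM in U87MG-LMO2. The U87MG-LMO2 libraries lay within 2 CPM of each other and below every control (log2 fold change -0.48, SE 0.11, adjusted p = 0.0422, 1.39-fold lower). The call was lost in 7 of 14 alternatives, which included every fit without a control library and those without U87MG-LMO2 replicate 1 or 2 (log2 fold changes -0.54 to -0.40, adjusted p 0.0779 to 0.157), the replicate block and the GC-content correction. Exons of ADAM17 overlap those of IAH1 on the other strand, whose log2 fold change was 0.09 (edgeR adjusted p = 0.621).

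ADAM10, which shares many substrates with ADAM17, had 91.3, 91.4 and 93.5 CPM in control and 105, 101 and 90.02 CPM in U87MG-LMO2, and the groups overlapped. Its 95% interval ran from -0.12 to 0.32 on the log2 scale (edgeR adjusted p = 0.557). The difference between the changes of ADAM10 and ADAM17 was not tested. ADAM9 was at 216, 196 and 201 CPM in control and 179.5, 166 and 210.2 CPM in U87MG-LMO2 (log2 fold change -0.14, SE 0.11, adjusted p = 0.460), and the sign of its estimate turned with the GC-content correction.

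ADAM15 lay at 63.2, 74.2 and 74.5 CPM in control and 87.1, 87.5 and 97.2 CPM in U87MG-LMO2. These values did not overlap, yet the difference stayed outside the threshold (log2 fold change 0.36, SE 0.11, adjusted p = 0.0757), and with the GC-content correction the log2 fold change was 0.14 (adjusted p = 0.361). The leukocyte-associated sheddase ADAM8 had 22.1, 16.2 and 15.4 CPM and 12.02, 11.3 and 23.3 CPM. U87MG-LMO2 replicate 3 was the highest of its 6 libraries and replicates 1 and 2 the lowest, and ADAM8 was called lower (adjusted p = 0.0392) in 1 of 14 alternatives, the fit without replicate 3.

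Both tested ADAMs that lack a catalytic site fell, against 2.75% of all tested genes, but these are only 2 genes. ADAM22 (Entrez ID 53616, chr7:87934143-88202889), the neuronal receptor of LGI1, had 17.5, 16.4 and 16.3 CPM in control and 11.3, 11.2 and 11.1 CPM in U87MG-LMO2 (log2 fold change -0.58, SE 0.12, adjusted p = 0.0279). ADAM23 (Entrez ID 8745, chr2:206443539-206621130), a related LGI1-binding protein, had 37.9, 29.6 and 30.3 CPM in control and 19.8, 19.6 and 22.9 CPM in U87MG-LMO2 (log2 fold change -0.65, SE 0.14, adjusted p = 0.0299). In both genes the U87MG-LMO2 libraries varied little and lay below the lowest control.

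Leaving out any control library, or U87MG-LMO2 replicate 1 or 2, removed the call of ADAM22 (log2 fold changes -0.59 to -0.55, adjusted p 0.0527 to 0.112) and of ADAM23 (log2 fold changes -0.71 to -0.53, adjusted p 0.0599 to 0.115). ADAM22 also missed the threshold in both limma fits, with the replicate block and with the GC-content correction (log2 fold changes -0.67 to -0.42, adjusted p 0.0523 to 0.0805), and ADAM23 missed it with the replicate block (log2 fold change -0.64, adjusted p = 0.0642). Without U87MG-LMO2 replicate 3 both were called, with log2 fold changes of -0.57 and -0.72. ADAM11, ADAM32 and ADAM7, the other members without a catalytic site, had at most 8 counts in any library and were not tested.

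**Figure D3:**
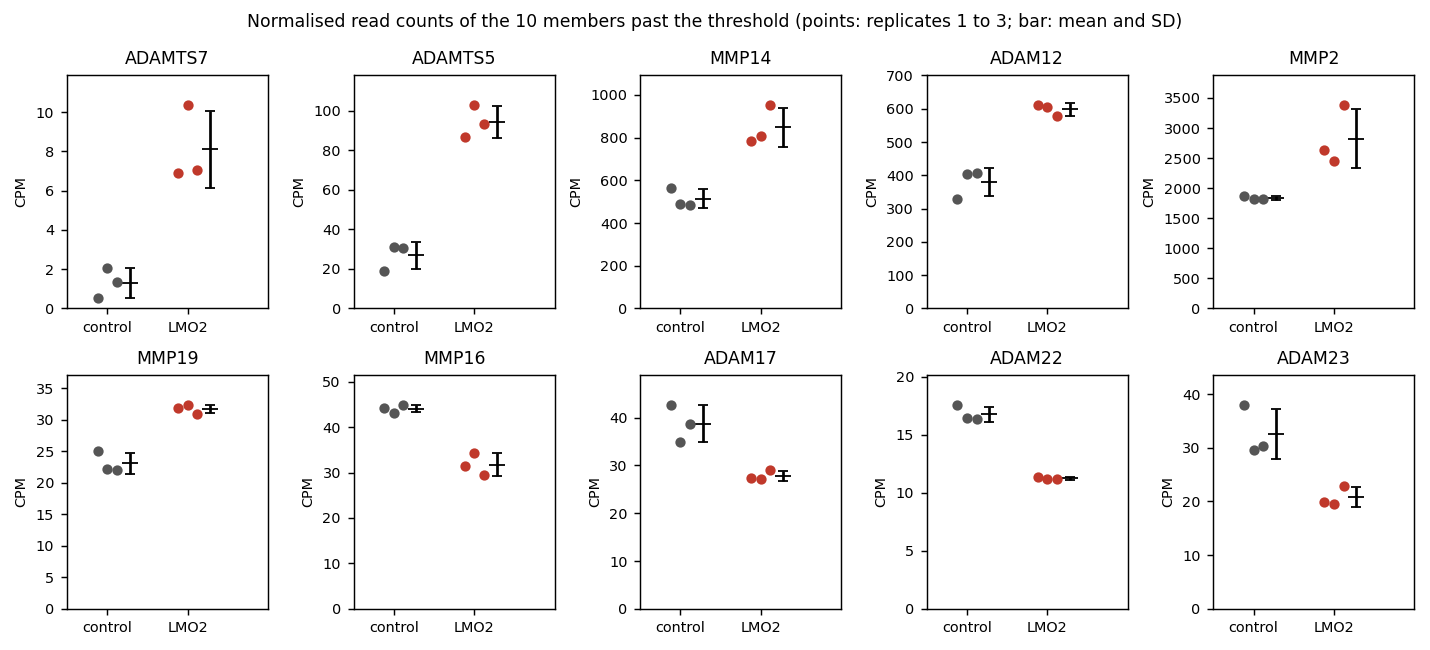
Normalised read counts (CPM, linear axes from 0) of the 10 called members in each library, with U87MG-control in grey and U87MG-LMO2 in red. Points are replicates 1 to 3 from left to right and the black bar beside them is the mean and SD (n = 3). No panel has overlapping groups, and U87MG-LMO2 replicate 3 is the highest library for MMP2 and MMP14.

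Among called members the largest changes were those of ADAMTS genes. Of the 14 tested, 2 rose and none fell, against 4.72% and 2.75% of all tested genes. ADAMTS5 (Entrez ID 11096, chr21:26917912-26966513), the main aggrecan-cutting enzyme of cartilage, had 19.00, 31.1 and 30.5 CPM in control and 86.9, 103 and 93.2 CPM in U87MG-LMO2. The lowest U87MG-LMO2 library was more than 2-fold above the highest control. ADAMTS5 rose 3.50-fold (log2 fold change 1.81, SE 0.18, adjusted p = 0.00293) and was called in all 14 alternatives, with log2 fold changes from 1.48 to 1.99. Its level went from 2.77 ± 0.708 to 9.43 ± 0.941 FPKM (SD, n = 3).

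ADAMTS7 (Entrez ID 11173, chr15:78759203-78811431), which cuts COMP and thrombospondin 1, was low in control, with 0.521, 2.04 and 1.36 CPM from 6, 28 and 18 counts. U87MG-LMO2 replicates had 6.89, 10.4 and 7.05 CPM, all above the controls. The estimate was 6.02-fold (log2 fold change 2.59, SE 0.37, adjusted p = 0.00926). ADAMTS7 was called in 12 of the 13 alternatives that tested it, the exception being the fit without control replicate 3 (log2 fold change 2.61, adjusted p = 0.0558), and the fit that required 10 counts in every library did not test it. On the log2(FPKM + 1) scale, which understates changes of low genes, the difference was 0.98. A near-identical pseudogene, ADAMTS7P1, was listed at 0 to 0.04 FPKM, and reads of the pair could be split between them.

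ADAMTS1, which lies beside ADAMTS5 on chromosome 21, had 206, 330.3 and 334 CPM in control and 359.8, 551 and 306 CPM in U87MG-LMO2. Control replicate 1 was low, U87MG-LMO2 replicate 2 was high, and the groups overlapped (log2 fold change 0.48, SE 0.25, adjusted p = 0.256). ADAMTS4 and ADAMTS9, which also cut proteoglycans, had adjusted p-values of 0.774 and 0.281. ADAMTS12 was at 143, 106 and 117 CPM in control and 113, 111 and 111 CPM in U87MG-LMO2 (log2 fold change -0.12, SE 0.12, adjusted p = 0.555).

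None of the 3 procollagen N-proteinases passed the threshold, which 7.48% of all tested genes did. Their log2 fold changes were -0.68 for ADAMTS2, -0.47 for ADAMTS3 and 0.07 for ADAMTS14 (edgeR adjusted p 0.206, 0.264 and 0.901). ADAMTS13, which cuts von Willebrand factor, had 3.90, 4.60 and 5.07 CPM and 7.44, 5.11 and 10.5 CPM. Its groups did not overlap, and it was called higher in 1 of 14 alternatives, that without U87MG-LMO2 replicate 2 (adjusted p = 0.0425). ADAMTS18, at 1.07 on the log2 scale (adjusted p = 0.235), was called higher in 1 of 13 alternatives, that without U87MG-LMO2 replicate 3 (adjusted p = 0.0437).

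None of the 3 tested TIMPs passed the threshold, which 7.48% of all tested genes did. TIMP1 had 171, 154 and 143 CPM in control and 148, 163 and 207 CPM in U87MG-LMO2 (log2 fold change 0.15, SE 0.14, adjusted p = 0.545, 95% interval -0.17 to 0.46). TIMP2, which also takes part in proMMP2 activation by MMP14, had 335, 328 and 312 CPM and 403, 324 and 464 CPM (log2 fold change 0.29, SE 0.13, adjusted p = 0.215, 95% interval -0.01 to 0.59). In TIMP4 the values were 17.6, 14.97 and 14.7 CPM and 16.5, 12.6 and 29.04 CPM (log2 fold change 0.30, SE 0.28, adjusted p = 0.526, 95% interval -0.32 to 0.93).

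U87MG-LMO2 replicate 3 was the highest library for all 3 of these inhibitors, and the groups overlapped for each. Without it, the log2 fold changes were -0.0049 for TIMP1 and -0.11 for TIMP4, and with the GC-content correction that of TIMP1 was -0.00095. The upper bound of the interval of TIMP4 (0.93) lay above the MMP2 estimate of 0.62 on the log2 scale. Those of TIMP1 (0.46) and TIMP2 (0.59) lay below it. The interval of MMP2 itself, 0.33 to 0.91, overlapped those of all 3 inhibitors. Whether the inhibitors changed less than MMP2 was not tested. TIMP3 was too low to test.

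Sums of FPKM over each class were compared as descriptions, without a test. The secreted MMPs summed to 595, 617 and 614 FPKM in control and 855, 788 and 1048 FPKM in U87MG-LMO2, and most of this was MMP2. Membrane-type MMPs summed to 187, 165 and 165 FPKM in control and 253, 253 and 282 FPKM in U87MG-LMO2. In both classes the groups did not overlap and U87MG-LMO2 replicate 3 was highest.

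ADAMs summed to 173 ± 3.06 FPKM (SD, n = 3) in control and 189 ± 5.31 FPKM in U87MG-LMO2, a smaller difference in which the groups also stayed apart. For the ADAMTS class the sums were 99.05 ± 12.1 and 126 ± 31.2 FPKM, and the libraries overlapped. TIMPs summed to 290.2, 269 and 252 FPKM in control and 285, 274 and 341 FPKM in U87MG-LMO2, also with overlap.

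The ratio of summed protease FPKM to summed TIMP FPKM was 3.57, 3.93 and 4.23 in control and 4.99, 5.07 and 4.73 in U87MG-LMO2, and the groups did not overlap. MMP2 to TIMP2 went from 6.01 ± 0.179 to 7.50 ± 0.527 and MMP14 to TIMP2 from 1.60 ± 0.101 to 2.20 ± 0.293 (SD, n = 3), also without overlap. In U87MG-LMO2 replicate 3, where TIMP levels were highest, the ratio of all proteases to TIMPs was the lowest of its group. These ratios concern transcripts and say nothing of the amount of protein or of its activity.

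**Figure D4:**
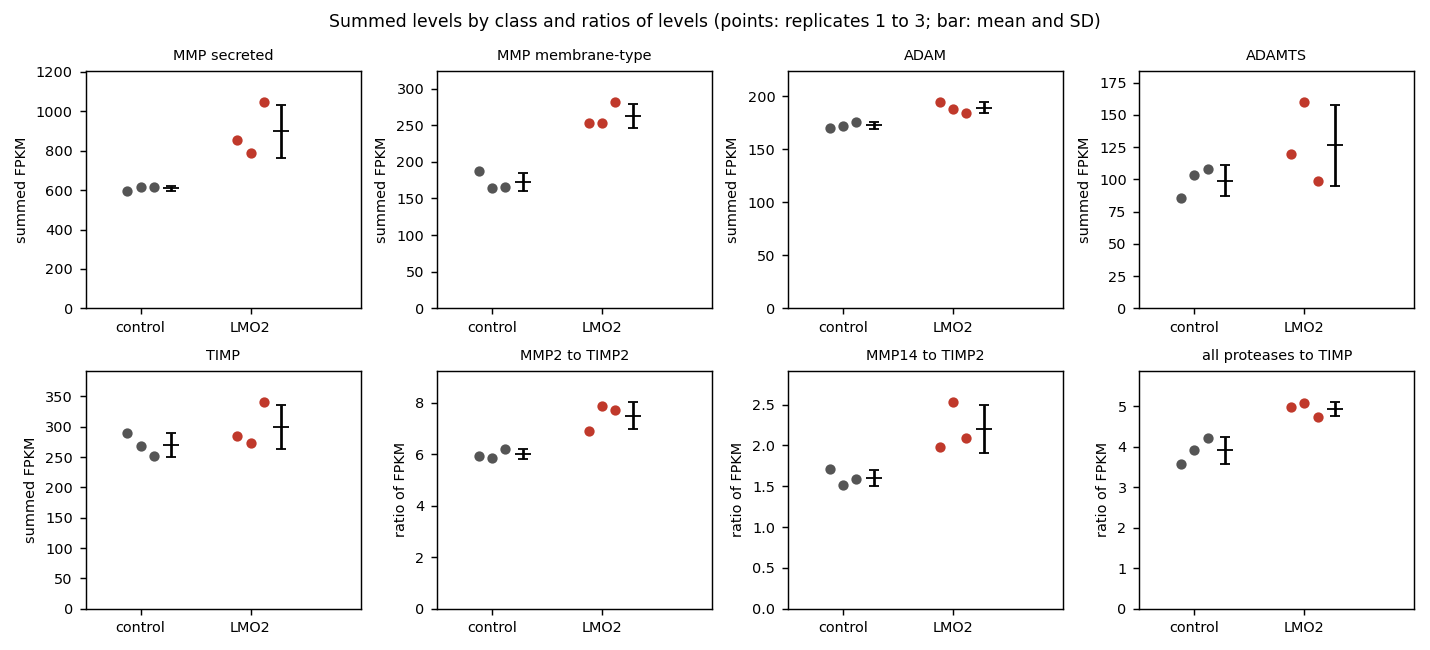
Summed FPKM of each class and ratios of FPKM in each library (linear axes from 0), with U87MG-control in grey and U87MG-LMO2 in red. Points are replicates 1 to 3 from left to right and the black bar is the mean and SD (n = 3). The groups are apart for both MMP classes, the ADAMs and the 3 ratios, and overlap for the ADAMTS and TIMP sums.

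Genes that act around these proteases were read from a list of 52 genes, of which 48 were listed in the tables and 39 were tested. It covers activating convertases, the plasmin system, docking and clearance receptors, partners of ADAM10 and ADAM17, ADAMTS-like proteins, other inhibitors, substrates and other pericellular proteases. In it 7 of 39 genes (17.9%) rose and 1 of 39 (2.56%) fell, against 4.72% and 2.75% of all tested genes. The U87MG-LMO2 libraries lay entirely above the controls for 17 of the 39 (43.6%) and entirely below for 3 (7.69%). The shares over all tested genes were 17.5% and 16.6%. The median log2 fold change of these genes was 0.17, against -0.01 over all tested genes. The list was chosen with earlier results of these data known, so these shares are descriptions and not a test of enrichment.

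Among the genes that rose were 2 testicans, matrix proteoglycans known to affect MMP activation. SPOCK1 had 31.9, 32.5 and 29.5 CPM in control and 76.8, 81.3 and 80.1 CPM in U87MG-LMO2, a wide separation with little spread (log2 fold change 1.34, SE 0.10, adjusted p = 7.18e-04). SPOCK3 was low, at 0.434, 0.803 and 0.757 CPM and 2.74, 3.27 and 3.01 CPM (log2 fold change 2.14, SE 0.28, adjusted p = 0.00654). SPOCK2 was not tested.

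HTRA1, a secreted serine protease, had 84.9, 132 and 129.6 CPM in control and 374, 353 and 317 CPM in U87MG-LMO2 (log2 fold change 1.59, SE 0.17, adjusted p = 0.00344). BMP1, the procollagen C-proteinase, had 65.3, 69.01 and 72.04 CPM and 105, 108 and 139 CPM (log2 fold change 0.77, SE 0.13, adjusted p = 0.0136). SPOCK1 and HTRA1 were called in all 14 alternatives and SPOCK3 in the 13 that tested it, while BMP1 was lost when any control library was left out, with adjusted p-values up to 0.0728.

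FURIN, the convertase that removes the propeptide of MMP14 and of many ADAM and ADAMTS precursors, went from 76.95, 79.3 and 72.6 CPM to 106, 102 and 115 CPM (log2 fold change 0.50, SE 0.09, adjusted p = 0.0216). BSG (basigin, an inducer of MMPs) and CAV1 (caveolin 1) had log2 fold changes of 0.40 and 0.43 (edgeR adjusted p = 0.0345 and 0.0356). These 3 calls were lost in 5 to 7 of 14 alternatives, among them the replicate block and each fit without a control library or without U87MG-LMO2 replicate 1, with adjusted p-values up to 0.195.

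THSD4, an ADAMTS-like protein of microfibrils, fell from 64.5, 54.2 and 46.8 CPM to 27.9, 26.7 and 32.7 CPM (log2 fold change -0.92, SE 0.14, adjusted p = 0.0114), and its call was lost without control replicate 1 or 2 or U87MG-LMO2 replicate 1 (adjusted p up to 0.0613). RECK, the membrane-anchored MMP inhibitor, had a log2 fold change of -0.14 (edgeR adjusted p = 0.581). In the plasmin system, SERPINE2 had a log2 fold change of 1.01 with an adjusted p of 0.0591. Its U87MG-LMO2 libraries had 130, 115 and 257 CPM, of which replicate 3 was the highest. PLAU and PLAUR had adjusted p-values of 0.464 and 0.997. The cathepsins CTSB and CTSL lay below every control in all U87MG-LMO2 libraries but did not pass the threshold (log2 fold changes -0.50 and -0.31, edgeR adjusted p 0.111 and 0.107). Of the matrix and mesenchymal markers, COL1A1 went from 131 ± 9.15 to 258 ± 6.86 FPKM (SD, n = 3, log2 fold change 1.02, SE 0.10, adjusted p = 0.00238). CD44, whose CPM overlapped between the groups, had an adjusted p of 0.292. FN1 did not pass the threshold (log2 fold change 0.99, SE 0.29, adjusted p = 0.0755), with 563, 510.0 and 1079 FPKM in U87MG-LMO2, of which replicate 3 was the highest. The FPKM of these 3 markers summed to between 942 and 1017 in control and between 1367 and 1829 in U87MG-LMO2, and the part of this list in the changes of the proteases was not tested.

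**Figure D5:**
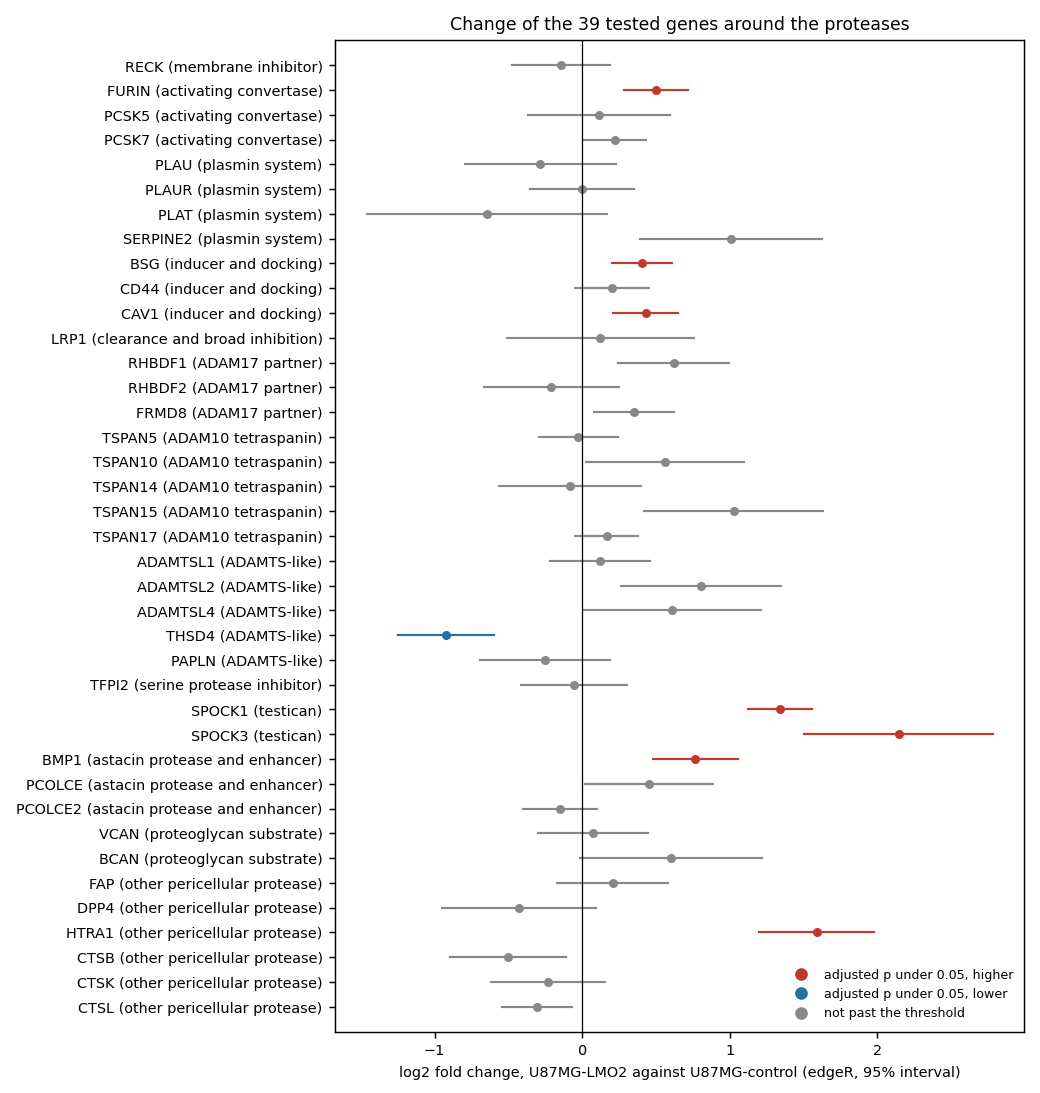
Change of the 39 tested genes that act around the proteases, with the role of each in brackets, as the log2 fold change of U87MG-LMO2 against U87MG-control from edgeR (n = 3 libraries a group). Lines are 95% intervals, red marks the 7 genes called higher and blue the 1 called lower. SPOCK3, HTRA1 and SPOCK1 lie farthest to the right and THSD4 farthest to the left.

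Promoters of members that moved are shown so that the letters before their start can be read beside the changes above. They are the 250 bases before the start of the gene in RefSeq (GRCh38.p14), written along the gene's strand, and 33 of the 55 members had an entry in the table used. RefSeq starts can differ from the GENCODE positions given above. The ADAM17 window lies inside the GENCODE span of its gene, and the MMP14 window ends inside that of MMP14. MMP14, ADAM12 and ADAMTS7 rose and ADAM17 fell. Capitals mark GGGCGG or its reverse complement, the letters of the GC box.
MMP14 (chr14:22836335-22836584, plus strand): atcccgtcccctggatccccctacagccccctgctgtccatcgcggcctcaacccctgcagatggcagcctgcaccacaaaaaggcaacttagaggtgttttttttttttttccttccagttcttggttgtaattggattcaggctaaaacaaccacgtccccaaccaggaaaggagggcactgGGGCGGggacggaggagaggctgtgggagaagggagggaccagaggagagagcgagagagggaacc
ADAM12 (chr10:126388478-126388727, minus strand): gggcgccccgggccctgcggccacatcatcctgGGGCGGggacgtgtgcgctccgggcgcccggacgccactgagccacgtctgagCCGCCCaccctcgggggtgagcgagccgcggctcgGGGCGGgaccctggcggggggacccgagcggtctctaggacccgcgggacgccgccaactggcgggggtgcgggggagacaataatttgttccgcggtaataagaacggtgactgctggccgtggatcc
ADAMTS7 (chr15:78811465-78811714, minus strand): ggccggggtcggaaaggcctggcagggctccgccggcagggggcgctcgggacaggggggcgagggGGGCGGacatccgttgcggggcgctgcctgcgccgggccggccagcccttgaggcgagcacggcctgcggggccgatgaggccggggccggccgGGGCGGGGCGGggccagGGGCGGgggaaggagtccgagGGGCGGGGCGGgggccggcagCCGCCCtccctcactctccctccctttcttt
ADAM17 (chr2:9555831-9556080, minus strand): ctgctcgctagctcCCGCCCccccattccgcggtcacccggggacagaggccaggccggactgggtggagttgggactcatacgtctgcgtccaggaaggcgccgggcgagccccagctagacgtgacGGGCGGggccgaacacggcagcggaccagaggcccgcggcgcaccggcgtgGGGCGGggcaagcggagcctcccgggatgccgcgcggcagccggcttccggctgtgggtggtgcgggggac

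GGGCGG was found 1 time in the MMP14 window, 3 times in ADAM12, 7 times in ADAMTS7, where matches share letters, and 3 times in ADAM17, so it stood in windows of genes that moved in either direction. ADAM22 and ADAM23 each held 2 matches. On both strands, 25 of 33 member windows held it (75.8%), against 42.3% of 27305 promoter windows of the same length. The 27305 windows were those of every gene with an entry and were not matched to the members for gene type or GC content. Members without an entry, among them MMP2, ADAMTS5, MMP16 and MMP19, are not in these shares, and no difference was tested. TGANTCA, the AP-1 type motif, was in 3 of 33 member windows (MMP7, MMP10 and ADAMTS12), against 6.60% of all windows. TTCNNNGAA, the STAT type, was in 0 of 33, against 6.78% of all. CAGGTG, an E-box, was in 5 of 33 (15.2%), against 17.5% of all. Apart from GGGCGG, none of these letters occurred in the windows of the 6 called members with an entry, which says only that they are not in these 250 bases.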

How the data were processed

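RNA-seq tables of 6 U87MG libraries were used, 3 of U87MG-control and 3 of U87MG-LMO2, grouped by the treatment in the labels. For each gene the authors deposited an expected count, an estimate of its reads without normalization. Beside it the authors deposited FPKM, which takes account of gene length and mapped reads, with 2 decimals. The authors' deposited comparison table holds the mean FPKM of each group, a log2 ratio and a probability (a fraction from 0 to 1). The log2 ratio and probability are the authors' results and were not used. The submitters' processing notes name Bowtie2, BWA and GRCh38.p12, without roles. Their versions, the counting program and its strand setting are not given in the sources used here. Genes without a line were taken as 0. The file of U87MG-LMO2 replicate 3 was damaged, and 134 genes, which held 0.35% of the control counts, were left out of all tests. No member was among them.

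Expected counts were rounded and tested with edgeR 4.0.16 in R 4.3.3 (filterByExpr, TMM, quasi-likelihood test, two-sided, Benjamini-Hochberg adjustment over 16092 genes, adjusted p under 0.05). SE was the log2 fold change divided by the square root of F, and intervals are 95%. CPM used the TMM-adjusted library sizes. A count of 0 allows up to 3 counts, 0.181 to 0.260 CPM in these libraries, which covers counting error only, because PCR copies of a molecule were counted as reads. The fit was repeated with DESeq2 1.42.0, with upper-quartile normalization, unfiltered, with at least 10 counts in every library, with limma 3.58.1 on log2(FPKM + 0.1) and log2(FPKM + 1), with replicate numbers as a block, with a GC-content correction (lowess span 0.3, GC known for 89.9% of tested genes) and without each library in turn. The scripts were tested on simulated data. Overlapping exons came from GENCODE v29. Exons of ADAM15 and TIMP2 overlap those of DCST1 and CEP295NL on the same strand. Some other members, among them MMP1, MMP3 and TIMP4, overlap antisense genes that are not described above.

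The members and the lists were chosen with earlier results of these data known. Named were LMO2, the 4 TIMPs, every called member, the 3 members of highest mean FPKM in each protease class and every called gene of the second list. MMP1, MMP9, MMP12, MMP15, MMP17, MMP21, MMP25, ADAM8, ADAM10, ADAMTS2, ADAMTS3, ADAMTS4, ADAMTS9, ADAMTS13, ADAMTS14, ADAMTS18 and the uncalled genes around the proteases were named after their values were seen. In the second list 1 gene is not reported here. GGGCGG was added after the other 3 motifs had been searched.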

Additional observations from a re-analysis of the deposited data

How the results depend on the processing

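Over the 14 alternatives, ADAMTS5 was called in every one, ADAMTS7 in 12 of 13, MMP14 in 12, MMP2 and ADAM12 in 10, ADAM23 in 8, ADAM17 in 7, MMP16 in 6, ADAM22 in 5 and MMP19 in 4. The number of members called higher was 6 and stayed within 1.5 times of it in the 8 alternatives that kept all libraries. Over all genes those 8 called 387 to 979 higher, against 760 in the main fit. The number of members called lower was 4 and became 2 with limma on log2(FPKM + 1), 2 with limma on log2(FPKM + 0.1), 1 with the GC-content correction and 0 with the replicate block. Over all genes these fits called 369, 363, 370 and 189 lower, in the same order, against 443. Leaving out each library gave 1 to 7 members higher and 0 to 5 lower. In the list of genes around the proteases, 4 were called higher with the replicate block and 2 lower with the GC-content correction. Over all genes, the replicate block called 387 higher and the GC-content correction 370 lower, against 760 and 443 in the main fit. Leaving out each library gave 3 to 10 genes of this list higher and 0 to 8 lower. Over all genes those fits called 102 to 1307 higher and 42 to 1102 lower. The causes of these differences were not tested. Estimates changed sign in at least 1 alternative for 11 of the 39 tested members, none of them called in any fit. They were MMP1, MMP21, ADAM19, ADAMTS4, ADAMTS6, ADAMTS14 and ADAMTS17, and ADAM9 with the GC-content correction (0.11), ADAMTS12 without control replicate 1 (0.0022), TIMP1 with the GC-content correction (-0.00095) and without U87MG-LMO2 replicate 3 (-0.0049), and TIMP4 without U87MG-LMO2 replicate 3 (-0.11). Without each library in turn, ADAMTS12 ran from -0.21 to 0.0022, TIMP1 from -0.0049 to 0.25 and TIMP4 from -0.11 to 0.53.

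The replicate numbers were not taken as pairs, because the labels do not say that they pair cultures. Libraries that share a number did not deviate together (correlations -0.117, -0.0034 and -0.041). With the replicate block, 387 genes in all were called higher and 189 lower, against 760 and 443. A fit without 1 library leaves 2 against 3. LMO2 was not tested where 10 counts were required in every library. With 3 libraries a group and under 20 counts, the 16 untested members cannot be ranked or compared.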
